A study of Homo sapiens with 14 samples.

Results

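The ATP-binding cassette (ABC) transporter genes were described over 14 Affymetrix human transcriptome arrays of U87MG cells, an established human glioblastoma line. A gene was taken as a member when the array annotation gave its transcript cluster exactly 1 symbol of the form ABCA to ABCG followed by a number, and the cluster with the highest mean signal over the 14 arrays stood for the gene. The rule found 43 genes among 22465 genes with a single symbol. They lie on 49 transcript clusters, and ABCF1 was the 1 member with more than a single cluster.

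The study asked how conditioned medium (CM) of mesenchymal stem cells (MSCs) acts on glioma stem cells. WJT were gliospheres kept for 7 days in CM of Wharton's jelly MSCs (3 arrays) and BMT were gliospheres kept for 7 days in CM of bone marrow MSCs (3 arrays). Gliospheres (3 arrays) were the same kind of spheres without CM, grown from CD133-sorted positive U87MG cells in serum-free medium with growth factors, and treatment began at passage 13. The control arrays were 2 of negative spheres and 3 of the untreated parental cell line, which the methods grew as a monolayer in serum. The labels call the negative spheres spheroids of cells that are not stem cells. The paper describes its negative control as the sorted CD133-negative population, which stopped making spheres after early passages. All 5 groups come from 1 cell line. Each sphere array is labelled a biological replicate, whereas a cell line array bears only its replicate number. No label says whether that means a separate culture, or which of the 3 MSC samples of each kind was used. The p-values therefore measure only the spread between these arrays. Sphere culture in serum-free medium and the CD133 sort cannot be told apart from one another in gliospheres against the cell line. By the methods, CM was gliosphere medium that had been kept on MSCs, mixed with some fresh medium to replenish growth factors. Factors released by the MSCs and medium components used up by them cannot be told apart in WJT or BMT against gliospheres.

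ABC transporters bind and hydrolyse ATP to move substrates across membranes, and most are exporters. Drug efflux pumps of the ABCB, ABCC and ABCG subfamilies remove chemotherapeutics and conjugated metabolites from cells and are known for their part in multidrug resistance and at the blood-brain barrier, and ABCG2 is the pump behind the dye-excluding side population often used to enrich stem-like cells. Other members move cholesterol and phospholipid, serve mitochondria, peroxisomes and lysosomes, or, as in ABCE1 and the ABCF proteins, have no membrane domain and act on ribosomes.

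Values are log2 signals. The arrays had medians between 3.58 and 3.92 log2, and a gene whose mean over the 14 arrays was at or below 3.65, the mean of the array medians, was taken as near background. By this measure 24 of the 43 members were above background and 19 were not. Of the stem cell markers, PROM1, which encodes CD133, was near background in every group, with group means between 3.45 and 3.59 log2, and in gliospheres against control its adjusted p was 0.870 by limma. Near background over the 14 arrays were 3 of the 7 stem cell markers. SOX2 and MSI1 lay barely above the cutoff, at 3.66 each, and below it in gliospheres, at 3.55 and 3.62. Of the stem cell markers only NES (4.34) and PAX6 (5.80) had gliospheres means above the cutoff. Also near background were 4 of 5 measured markers of differentiated glia and neurons, GFAP of astrocytes among them, with MAP2 of neurons above at 5.46. So were 2 of 5 of endothelium. Of 4 measured leukocyte markers 3 were near background, PTPRC among them, while CD68 averaged 15.26 log2. Of 4 measured mesenchymal markers THY1 was near background, while NT5E averaged 17.69, ENG 7.17 and PDGFRB 7.01. The mean correlation of an array with the others of its own group was between 0.990 and 0.993 in WJT and BMT, 0.968 and 0.978 in gliospheres, 0.985 in negative spheres, and 0.929 and 0.945 in the cell line. A transcript signal of a culture cannot tell fewer cells that express a gene from less RNA per cell.

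Promoter sequence is shown for ABCC2, the member whose signal differed most between groups, and for ABCA1, the lipid pump with the widest range. Each run covers 250 bases before to 50 bases after the RefSeq start, read 5′ to 3′ on the strand of the gene, in GRCh38.p14. ABCC2 lies on the plus strand at chr10:99782390-99782689 and ABCA1 on the minus strand at chr9:104928106-104928405. Capitals mark the motif matches found.
ABCC2: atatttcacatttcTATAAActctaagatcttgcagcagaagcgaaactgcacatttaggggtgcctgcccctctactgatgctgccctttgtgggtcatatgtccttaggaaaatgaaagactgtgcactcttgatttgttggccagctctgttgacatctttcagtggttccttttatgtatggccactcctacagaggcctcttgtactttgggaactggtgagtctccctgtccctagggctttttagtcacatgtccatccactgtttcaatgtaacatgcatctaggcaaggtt
ABCA1: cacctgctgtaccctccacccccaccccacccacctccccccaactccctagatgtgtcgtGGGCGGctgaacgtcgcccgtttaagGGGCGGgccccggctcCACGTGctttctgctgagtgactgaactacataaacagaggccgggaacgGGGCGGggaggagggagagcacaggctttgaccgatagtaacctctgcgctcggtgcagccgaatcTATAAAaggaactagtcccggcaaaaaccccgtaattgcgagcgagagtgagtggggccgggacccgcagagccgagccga

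The ABCC2 run held 45% G and C and a single match, TATAAA, beginning at position -236 from the start. The ABCA1 run held 62.7% G and C, GC boxes (GGGCGG) at -189, -163 and -97, an E-box (CACGTG) at -147 and TATAAA at -31, and none of these matches overlapped. Both strands were searched. TATAAA was present in 5 of the 34 members with a promoter in the table (14.7%) and in 11.5% of 35116 windows of this length, and GGGCGG in 18 of 34 (52.9%) and in 45% of the windows. The core of the antioxidant response element (TGACNNNGC) was present in 7 of 34 (20.6%) against 13.3% of the windows, the CCAAT box in 6 (17.6%) against 34.6%, CACGTG in 4 (11.8%) against 7.26%, and the AP-1 letters TGANTCA in 2 (5.88%) against 7.71%. The sterol regulatory core TCACNCCAC and the direct repeat read by liver X receptors (half-site AGGTCA) had no match in the members, and 1.13% and 0.0199% of the windows held them. These matches describe letters in the windows and not bound sites. The direct repeat was searched for only in exact letters and at a single spacing. Repeats that differ in any letter, in ABCA1 or elsewhere, were not looked for, so the lack of a match does not bear on them.

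**Figure D1:**
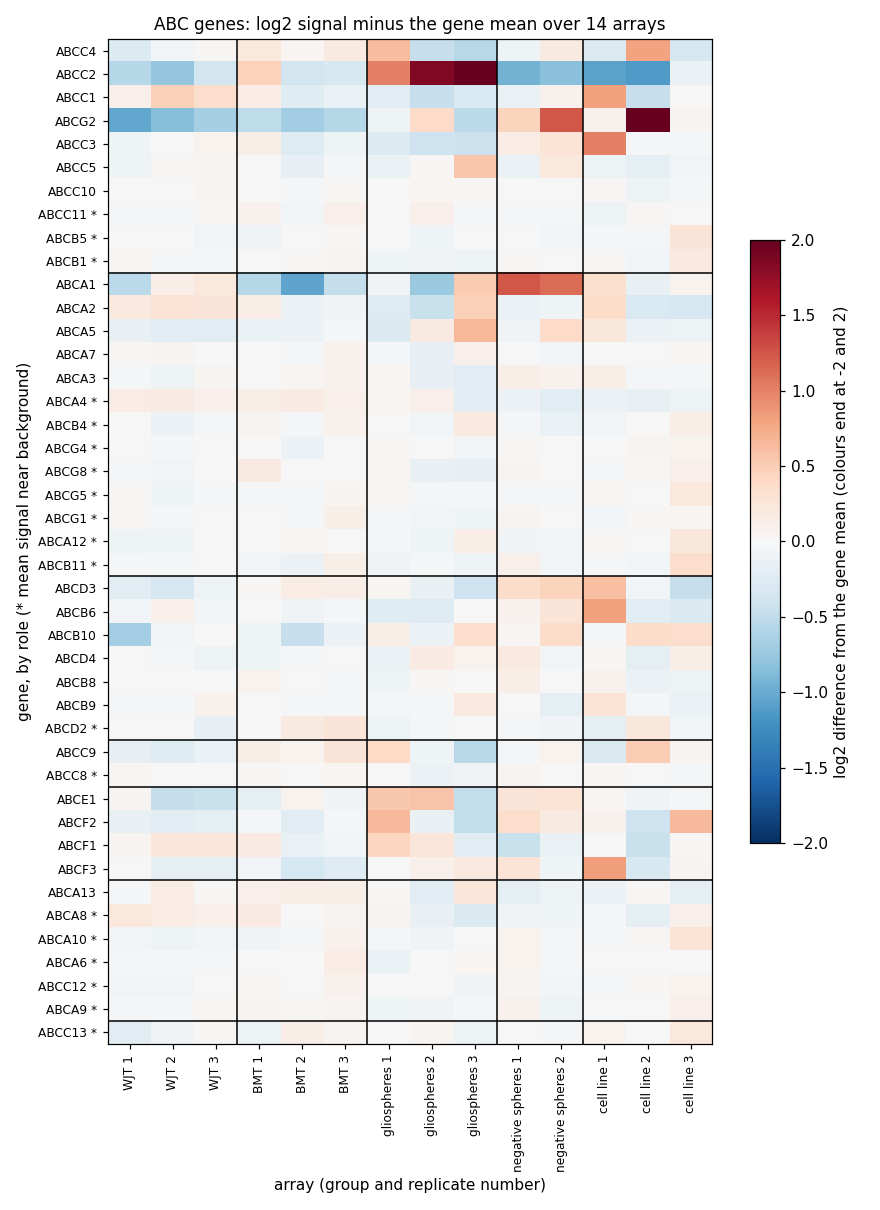
Log2 signal of the 43 ABC genes (rows, grouped by role; an asterisk marks a mean signal near background) on the 14 arrays (columns, by group), as the difference from the mean of each gene over the arrays, with colours ending at -2 and 2 log2. ABCC2 stood highest on the 3 gliospheres arrays and ABCG2 on replicate 2 of the cell line, and most other rows varied little.

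Drug efflux pumps made up 10 of the members and 7 of them were above background (ABCC1, ABCC2, ABCC3, ABCC4, ABCC5, ABCC10 and ABCG2). ABCB1, which encodes P-glycoprotein, ABCB5 and ABCC11 were near background. ABCB1 read 3.20, 3.13 and 3.14 log2 in WJT, 3.15, 3.19 and 3.21 in BMT, 3.07, 3.09 and 3.06 in gliospheres, 3.18 and 3.16 in negative spheres and 3.18, 3.11 and 3.36 in the cell line. Its gliospheres arrays were the 3 lowest, but all 14 values lay below every array's median signal, and its differences were at most 0.14 in size. For gliospheres against the cell line the ABCB1 difference was -0.14 (limma adjusted p 0.503), and -0.07 without cell line replicate 3 (adjusted p 0.793).

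ABCC2 is an export pump of the apical membrane for glutathione and glucuronide conjugates, known from liver, gut and kidney. Its signal was 6.50, 6.31 and 6.72 log2 in WJT, 7.54, 6.71 and 6.75 in BMT, 8.08, 8.94 and 10.24 in gliospheres, 6.14 and 6.25 in negative spheres and 6.01, 5.95 and 6.96 in the cell line. Every gliospheres array was above all 11 others, and the 3 WJT values lay inside the range of the 5 control arrays. The range of 4.29 log2 over the 14 arrays was the widest of the 43 members, followed by 3.77 for ABCG2 and 2.30 for ABCA1.

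ABCC2 rose in gliospheres against control, averaging 9.09 ± 1.09 log2 in gliospheres (SD, n = 3) and 6.26 ± 0.41 in control (SD, n = 5). The log2 difference was 2.82 (SE 0.40, 95% interval 1.95 to 3.70), a fold of 7.07, with a limma p of 1.38e-05 and an adjusted p of 0.0102. Here and below limma was fitted to all 67528 clusters on the array, adjusted p-values are by the Benjamini-Hochberg method over those clusters, and a difference passed at an adjusted p below 0.05. Each fit took a single spread per gene for all its groups, whereas the SD of ABCC2 was far larger in gliospheres than in WJT (0.20), BMT (0.47) or control. Intervals and p-values of ABCC2 in comparisons with gliospheres may therefore understate the uncertainty. No fit with a separate spread for each group was run. It was 1 of 43 members that passed an adjusted p below 0.05, while 1.01% of all genes with a single symbol did so. Without gliospheres replicate 3, which held the highest ABCC2 value, the difference was 2.25 and the adjusted p 0.0118. The call was lost when only the gliospheres and control arrays entered the fit (adjusted p 0.160) and when negative spheres alone served as control (adjusted p 0.0735).

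Both kinds of control gave the same direction for ABCC2. Gliospheres were higher than the cell line, at 6.31 ± 0.57 log2 (SD, n = 3), by 2.78 (95% interval 1.75 to 3.80, a fold of 6.85, limma adjusted p 0.0430), again as 1 of 43 members, where 0.539% of genes passed. This call lay close to the threshold. It was lost with the variances allowed to follow intensity (adjusted p 0.0520), with array weights (0.0621), with the replicate number as a block (0.0525, with the difference still 2.78), with 2 groups in the fit (0.610) and on leaving out any 1 of 11 arrays, among them gliospheres replicate 2 (0.104). Gliospheres minus negative spheres, at 6.19 ± 0.08 log2 (SD, n = 2), gave 2.89 (95% interval 1.74 to 4.04, a fold of 7.42) with an adjusted p of 0.0735 by limma, and none of the 43 members passed, where 0.272% of genes did. The negative spheres and the cell line differed in ABCC2 by -0.11 (95% interval -1.26 to 1.03, limma adjusted p 0.977).

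In the treated spheres ABCC2 lay below the untreated gliospheres on every array, yet the difference did not pass. WJT averaged 6.51 ± 0.20 log2 and gliospheres 9.09 ± 1.09 (SD, n = 3 each), a difference of -2.57 (SE 0.45, 95% interval -3.55 to -1.60), or 5.96 times lower signal in WJT. The unadjusted limma p was 9.35e-05 and the adjusted p 0.139. No gene of the whole table passed in WJT, the smallest adjusted p being 0.104, so 0 of 43 members stand beside a background of 0%. ABCC2 had the 27th smallest p among the 22465 genes.

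BMT averaged 7.00 ± 0.47 log2 (SD, n = 3), and the difference from gliospheres was -2.09 (SE 0.45, 95% interval -3.06 to -1.11), or 4.25 times lower signal in BMT. Its unadjusted limma p was 5.58e-04 and its adjusted p 0.209, and ABCC2 ranked as the 68th gene by p. Of all genes 0.0134% passed in BMT and none of them was a member. Leaving out gliospheres replicate 1, the lowest of the 3 in ABCC2, brought ABCC2 past the threshold in both treatments, with differences of -3.08 in WJT (adjusted p 0.0271) and -2.59 in BMT (adjusted p 0.0363). Without gliospheres replicate 3 the differences were -2.0 in WJT (adjusted p 0.126) and -1.51 in BMT (adjusted p 0.294).

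The treatments were also set against each other. ABCC2 in WJT minus BMT gave -0.49 (95% interval -1.46 to 0.49) with an adjusted p of 1.00 by limma, and BMT replicate 1 was the highest of the 6 treated arrays. No member and no other gene passed in WJT against BMT (0% of genes). Both treatments and the control were compared with the same 3 gliospheres arrays, so the 3 ABCC2 differences share the spread of those arrays.

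The measured mesenchymal markers were set beside ABCC2, and a link between them was not tested. The mean of the 4 measured genes of 5 listed lay between 9.17 and 9.38 log2 in WJT, 8.83 and 8.94 in BMT, 8.47 and 9.61 in gliospheres, 8.52 and 8.66 in negative spheres, and 7.76 and 9.0 in the cell line. Within gliospheres the arrays rose in the same order in ABCC2, in this mean (8.47, 8.66 and 9.61) and in the pericyte and mesenchymal receptor PDGFRB. Replicate 3 was highest in each. PDGFRB read 5.79, 6.60 and 10.50 log2 in gliospheres. It is itself among the 4 genes of the mean, so the order of PDGFRB and that of the mean are not separate readings. The summed signal of the other genes in the mean did not rise with ABCC2 over these arrays. Values of ABCC2 without replicate 3 are given above.

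**Figure D2:**
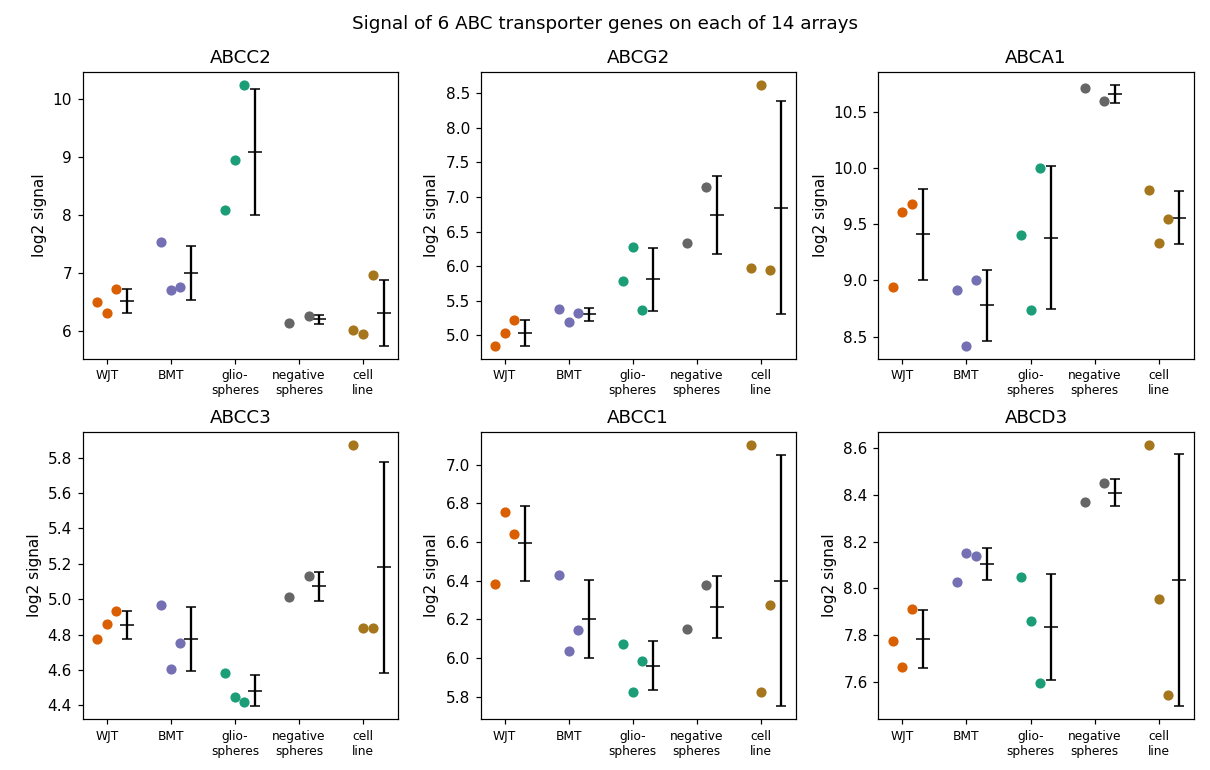
Log2 signal of 6 ABC genes on each of the 14 arrays, by group (dots, arrays; black bars, mean ± SD), each panel on its own axis. The 3 gliospheres arrays of ABCC2, between 8.08 and 10.24, lie above all others, and replicate 2 of the cell line is alone at 8.62 in ABCG2.

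ABCG2, the breast cancer resistance protein, ran in another order. It read 4.85, 5.04 and 5.23 log2 in WJT, 5.38, 5.20 and 5.32 in BMT, 5.78, 6.27 and 5.37 in gliospheres, 6.34 and 7.14 in negative spheres and 5.98, 8.62 and 5.94 in the cell line. The 3 WJT arrays and replicate 2 of BMT were the 4 lowest, and both negative spheres arrays were above every sphere array of the positive population. The order of the group means was cell line (6.85 ± 1.54), negative spheres (6.74 ± 0.56), gliospheres (5.81 ± 0.45), BMT (5.30 ± 0.09) and WJT (5.04 ± 0.19; SD, n = 3 except negative spheres, n = 2), and no neighbours in it differed beyond their spread by the limma test.

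Against gliospheres, ABCG2 differed by -0.77 in WJT (95% interval -1.99 to 0.45, limma adjusted p 0.967) without overlap of the arrays, and by -0.51 in BMT (95% interval -1.73 to 0.71, adjusted p 0.844) with overlap. Without gliospheres replicate 2, the highest of the 3 in ABCG2, the BMT difference was -0.28 (limma adjusted p 0.954). In gliospheres against control the difference was -1.0 (95% interval -2.09 to 0.10, limma adjusted p 0.507). That difference shrank to -0.54 (adjusted p 0.494) without replicate 2 of the cell line, where ABCG2 was more than 1 log2 above any other array. WJT minus BMT gave -0.26 (limma adjusted p 1.00).

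ABCC1, the multidrug resistance protein that exports glutathione conjugates and leukotriene C4, read 6.38, 6.76 and 6.64 log2 in WJT, 6.43, 6.04 and 6.15 in BMT, 6.07, 5.82 and 5.99 in gliospheres, 6.15 and 6.38 in negative spheres and 7.10, 5.82 and 6.28 in the cell line. All WJT arrays were above all gliospheres arrays. WJT averaged 6.59 ± 0.19 and gliospheres 5.96 ± 0.13 (SD, n = 3 each), and the difference of 0.63 (95% interval 0.09 to 1.18) had an unadjusted limma p of 0.0269 and an adjusted p of 0.730. ABCC1 and ABCC2 thus had differences of opposite sign in WJT, neither of which passed.

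ABCC3, an export pump for glucuronide conjugates and bile salts, read 4.77, 4.86 and 4.93 log2 in WJT, 4.97, 4.61 and 4.75 in BMT, 4.58, 4.45 and 4.42 in gliospheres, 5.01 and 5.13 in negative spheres and 5.87, 4.83 and 4.84 in the cell line. The gliospheres arrays were the 3 lowest of the 14. The difference was -0.65 in gliospheres against control (95% interval -1.09 to -0.22, unadjusted limma p 0.00653, adjusted p 0.211). It was 0.37 in WJT (adjusted p 0.933) and 0.29 in BMT (adjusted p 0.763) against gliospheres, again without overlap. In each of these comparisons the ABCC3 difference had the sign opposite to that of ABCC2.

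The other efflux pumps above background varied within their groups as much as between them. ABCC4, which exports cyclic nucleotides and prostaglandins, averaged 8.41 ± 0.16 log2 in WJT, 8.65 ± 0.09 in BMT, 8.38 ± 0.65 in gliospheres, against 8.57 ± 0.47 in control (SD, n = 3, 3, 3 and 5). ABCC5, another exporter of cyclic nucleotides, lay between 4.53 and 5.27 over the 14 arrays and ABCC10 between 3.77 and 3.92. Over the 10 efflux pumps the median log2 difference was 0.00 in WJT and 0.02 in BMT against gliospheres, and -0.09 in gliospheres against control, beside 0.00, 0.02 and -0.04 over all genes.

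**Figure D3:**
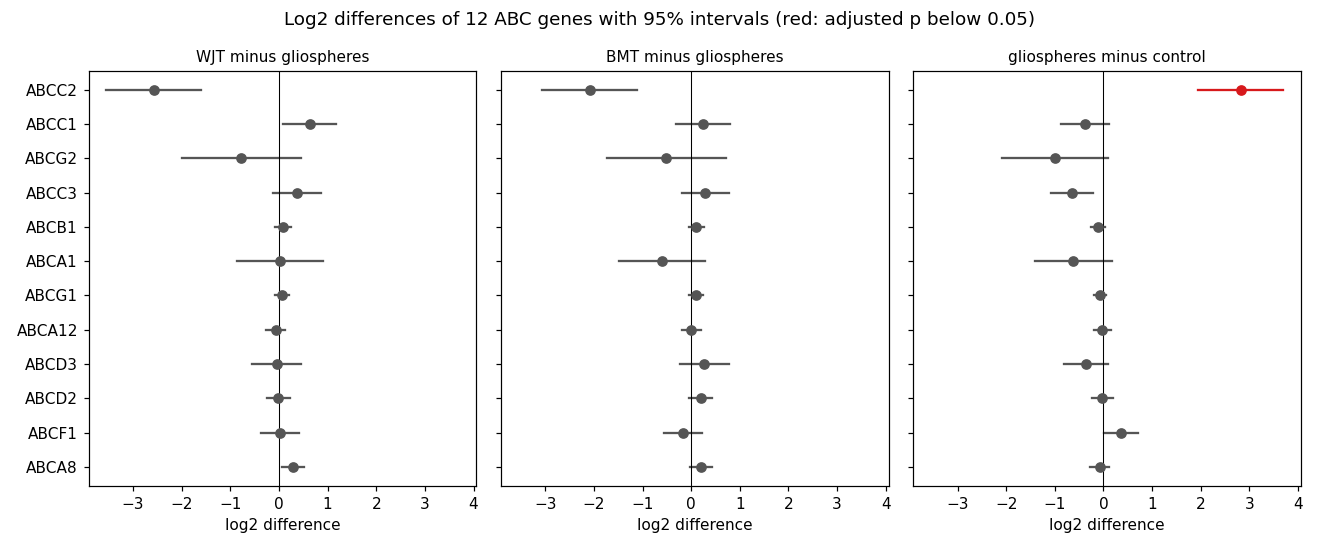
Log2 differences (dots) with 95% intervals (lines) of 12 ABC genes for WJT minus gliospheres, BMT minus gliospheres and gliospheres minus control, with red for an adjusted p below 0.05. ABCC2 in gliospheres minus control, at 2.82, is the red point, and its intervals in both treatments lie wholly below 0. The intervals assume the same spread in all groups, which ABCC2 did not have.

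Lipid and sterol transporters were 13 members, of which ABCA1, ABCA2, ABCA3, ABCA5 and ABCA7 were above background. None of the 13 passed in any of the 7 comparisons. ABCA1, which loads cholesterol and phospholipid onto apolipoprotein A-I, read 8.94, 9.61 and 9.68 log2 in WJT, 8.91, 8.42 and 9.0 in BMT, 9.40, 8.74 and 10.00 in gliospheres, 10.71 and 10.60 in negative spheres and 9.80, 9.33 and 9.54 in the cell line. Both negative spheres arrays were above the other 12 arrays, and the treated and untreated gliospheres overlapped.

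Gliospheres averaged 9.38 ± 0.63 log2 in ABCA1 (SD, n = 3) and negative spheres 10.66 ± 0.08 (SD, n = 2). The difference was -1.28 (SE 0.34, 95% interval -2.02 to -0.53), or 2.42 times lower signal in gliospheres, with an unadjusted limma p of 0.00310 and an adjusted p of 0.242. Negative spheres against the cell line, at 9.56 ± 0.24 (SD, n = 3), gave 1.10 (95% interval 0.35 to 1.84, a fold of 2.14, unadjusted limma p 0.00780, adjusted p 0.622), and no member passed there, as was so of all genes (0%). WJT differed from gliospheres by 0.03 (95% interval -0.85 to 0.91), and BMT by -0.60 (95% interval -1.49 to 0.28, limma adjusted p 0.730).

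ABCG1, which exports cholesterol to high-density lipoprotein, is with ABCA1 a textbook target of liver X receptors. It read 3.28, 3.24 and 3.26 log2 in WJT, 3.27, 3.23 and 3.37 in BMT, 3.24, 3.20 and 3.16 in gliospheres, 3.32 and 3.26 in negative spheres and 3.21, 3.28 and 3.28 in the cell line. All 14 ABCG1 values were so near background that no change could be read. ABCG4, ABCG5 and ABCG8, further sterol transporters, lay between 3.16 and 3.50. ABCA12, the glucosylceramide transporter of skin, read 3.15, 3.17 and 3.26 log2 in WJT, 3.24, 3.29 and 3.27 in BMT, 3.23, 3.17 and 3.39 in gliospheres, 3.18 and 3.20 in negative spheres and 3.27, 3.27 and 3.49 in the cell line, and its groups differed by no more than 0.15 log2. The negative spheres minus the cell line gave -0.15 for ABCA12, and -0.08 without cell line replicate 3 (limma adjusted p 0.946). ABCA3, a phospholipid loader of lung lamellar bodies, averaged 3.80 ± 0.13 log2 in gliospheres (SD, n = 3) and 4.02 ± 0.03 in negative spheres (SD, n = 2), a difference of -0.22 with a limma adjusted p of 0.579.

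ABCA2, a transporter of endosomes and lysosomes abundant in oligodendrocytes, averaged 5.33 ± 0.05 log2 in WJT and 5.05 ± 0.13 in BMT (SD, n = 3 each). Those arrays did not overlap, and the difference of 0.27 (95% interval -0.21 to 0.75) had a limma adjusted p of 1.00. ABCA5, a lysosomal member, averaged 4.72 ± 0.04 in WJT and 5.10 ± 0.48 in gliospheres (SD, n = 3 each), a difference of -0.38 with a limma adjusted p of 0.895.

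Among the 7 members of organelles, 6 were above background and only ABCD2 was not. ABCD3, which brings branched and other fatty acids into peroxisomes, read 7.77, 7.66 and 7.91 log2 in WJT, 8.03, 8.15 and 8.14 in BMT, 8.05, 7.86 and 7.60 in gliospheres, 8.37 and 8.45 in negative spheres and 8.61, 7.96 and 7.54 in the cell line. The negative spheres were above all gliospheres arrays, and the cell line spanned both. The difference in gliospheres against negative spheres was -0.58 (unadjusted limma p 0.0382, adjusted p 0.564).

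ABCD2, a close peroxisomal relative of the adrenoleukodystrophy protein, read 3.39, 3.39 and 3.24 log2 in WJT, 3.40, 3.57 and 3.66 in BMT, 3.29, 3.36 and 3.39 in gliospheres, 3.36 and 3.33 in negative spheres and 3.20, 3.62 and 3.34 in the cell line. BMT lay above gliospheres and above WJT without overlap, by 0.19 and, as WJT minus BMT, by -0.20, both near background (limma adjusted p 0.661 and 1.00). ABCB6, a porphyrin transporter, averaged 5.0 ± 0.14 in gliospheres (SD, n = 3) and 5.30 ± 0.45 in control (SD, n = 5). ABCB10, a mitochondrial protein needed for heme synthesis in erythroid cells, averaged 4.88 ± 0.38 in WJT, 4.90 ± 0.21 in BMT and 5.24 ± 0.22 in gliospheres (SD, n = 3 each), and none of these differences passed.

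The 4 members without a membrane domain were all above background. ABCE1, which recycles ribosomes after termination, averaged 11.61 ± 0.29 log2 in WJT, 11.83 ± 0.13 in BMT, 12.11 ± 0.61 in gliospheres, against 11.99 ± 0.16 in control (SD, n = 3, 3, 3 and 5). ABCF1, a factor of translation initiation, read 7.86, 8.05 and 8.05 log2 in WJT, 7.97, 7.68 and 7.74 in BMT, 8.24, 8.05 and 7.60 in gliospheres, 7.36 and 7.67 in negative spheres and 7.80, 7.36 and 7.83 in the cell line. The gliospheres arrays of ABCF1 overlapped those of every other group, and its difference of 0.36 in gliospheres against control had an unadjusted limma p of 0.0424 and an adjusted p of 0.437. That difference was 0.22 without gliospheres replicate 1 (limma adjusted p 0.707) and 0.54 without replicate 3 (adjusted p 0.226). Of the sulfonylurea receptors that regulate potassium channels, ABCC9 lay between 3.67 and 4.72 and ABCC8 was near background.

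The remaining members were mostly near background. ABCA6, ABCA8, ABCA9 and ABCA10, which neighbour ABCA5 on chromosome 17, had means between 3.21 and 3.56 log2, while ABCA5 itself was above background. ABCA8 read 3.77, 3.71 and 3.66 log2 in WJT, 3.72, 3.55 and 3.62 in BMT, 3.61, 3.41 and 3.27 in gliospheres, 3.50 and 3.47 in negative spheres and 3.52, 3.37 and 3.66 in the cell line. Every WJT array was above every gliospheres array, with a difference of 0.28 (unadjusted limma p 0.0167, adjusted p 0.649). ABCC12, next to ABCC11 on chromosome 16, and ABCC13, a transcribed pseudogene by RefSeq, were near background, and ABCA13 lay between 4.06 and 4.51.

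Counted over the whole family, the members stood close to the background of all genes. Groups did not overlap in 10 of 43 members (23.3%) for WJT against gliospheres, where 17.8% of all genes did not, and in 8 (18.6%) for BMT, where 20.2% did not. For gliospheres against control 3 members (ABCB1, ABCC2 and ABCC3; 6.98%) stood beside 8.48% of genes, for WJT against BMT 8 (18.6%) beside 16.3%, and for gliospheres against negative spheres 11 (25.6%) beside 26.7%. Gliospheres against the cell line gave 4 (9.3%) beside 16.2%, and negative spheres against the cell line 4 (9.3%) beside 14.8%. The shares of the family are small counts and differ little from those of all genes.

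Before adjustment, a limma p of at most 0.05 was reached by 3 members in WJT against gliospheres (ABCA8, ABCC1 and ABCC2; 7.62% of all genes), 1 in BMT (ABCC2; 9.04%) and none in WJT against BMT (2.52%). It was reached by 4 members in gliospheres against control (ABCA3, ABCC2, ABCC3 and ABCF1; 14.6%), 6 against negative spheres (ABCA1, ABCA3, ABCC2, ABCC3, ABCD3 and ABCF1; 10.3%) and 2 against the cell line (ABCC2 and ABCC3; 14%), and by ABCA1 in negative spheres against the cell line (5.23%). As shares of the 43 members these counts lay below those of all genes, except against negative spheres.

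With such a p and a fold of 2 or more, ABCC2 was the single member in WJT (0.944% of all genes met both) and in BMT (0.841%). ABCC2 was also the single member in gliospheres against control (2.2%) and against the cell line (2.37%). ABCA1 and ABCC2 met it in gliospheres against negative spheres (2.43%), ABCA1 in negative spheres against the cell line (0.752%) and no member in WJT against BMT (0.089%). The fold in the methods can also be read as a log2 difference of 2, and with it ABCC2 was the single member in WJT (0.134% of genes), BMT (0.0979%), and gliospheres against control (0.387%), negative spheres (0.521%) and the cell line (0.414%). No member met it in WJT against BMT (0.0089%) or in negative spheres against the cell line (0.227%). The median log2 difference of the members was 0.00 in WJT and 0.04 in BMT against gliospheres and -0.06 in gliospheres against control, beside 0.00, 0.02 and -0.04 over all genes. The sign of the control median depended on scaling, since it was 0.01 after quantile normalization and 0.03 after median centring.

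Family members that carry other symbols gave no call. TAP1 and TAP2, the peptide transporter of antigen presentation, and the chloride channel CFTR were all measured, and each of the 3 missed the threshold in all 7 comparisons. TAP2 averaged 5.93 ± 0.10 log2 in WJT and 5.68 ± 0.09 in BMT (SD, n = 3 each), a difference of 0.25 with a limma adjusted p of 1.00. CFTR, near background, averaged 3.38 ± 0.07 in gliospheres (SD, n = 3) and 3.65 ± 0.21 in control (SD, n = 5), a difference of -0.27 with a limma adjusted p of 0.454.

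Of 15 listed nuclear receptors and regulators of ABC genes 11 were measured, and SREBF2 alone passed. SREBF2 encodes the sterol-sensing factor that turns on cholesterol synthesis and, in its intron, the microRNA known to repress ABCA1. It rose in gliospheres, at 6.78 ± 0.04 log2 (SD, n = 3), against control, at 5.28 ± 0.21 (SD, n = 5), by 1.5 (limma adjusted p 0.00187). It also rose against negative spheres by 1.56 (adjusted p 0.0202) and against the cell line by 1.46 (adjusted p 0.0119). The liver X receptor NR1H3, which activates ABCA1 and ABCG1, averaged 5.24 ± 0.22 in gliospheres (SD, n = 3) and 4.92 ± 0.10 in control (SD, n = 5), and its difference of 0.31 had an unadjusted limma p of 0.00617 and an adjusted p of 0.208. In NR1H3 WJT and BMT differed from gliospheres by -0.32 (adjusted p 0.567) and -0.31 (adjusted p 0.445). PPARD, a fatty acid sensor, averaged 5.72 ± 0.06 in WJT and 5.32 ± 0.14 in BMT (SD, n = 3 each), with a limma adjusted p of 1.00, and SREBF1, which drives fatty acid synthesis, differed by 0.48 in gliospheres against the cell line (adjusted p 0.350).

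Of 15 listed partners of sterol efflux and targets of liver X receptors 12 were measured, and SCD alone passed. SCD, the stearoyl-CoA desaturase, rose in gliospheres, at 17.38 ± 0.82 log2 (SD, n = 3), against control, at 12.58 ± 1.15 (SD, n = 5), by 4.80 (limma adjusted p 0.00284). SOAT1, which esterifies cholesterol for storage, averaged 9.11 ± 0.19 in gliospheres and 10.01 ± 0.24 in control (SD, n = 3 and 5), and its difference of -0.90 missed the threshold with a limma adjusted p of 0.0554. OSBP, an oxysterol-binding protein, averaged 10.58 ± 0.25 in WJT and 9.59 ± 0.41 in gliospheres (SD, n = 3 each; difference 0.99, limma adjusted p 0.171). LIPA, the lysosomal acid lipase, averaged 6.84 ± 0.06 in WJT and 7.42 ± 0.25 in gliospheres (SD, n = 3 each; difference -0.58, limma adjusted p 0.198).

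Among 9210 genes with a mean of at least 5 log2, those whose signal ran most like ABCC2 over the 14 arrays were GJC1, WASH7P, NAAA, WASH3P and ELOVL6, with Pearson r between 0.890 and 0.902. Those most like ABCG2 were PWP1, ING3, ZNF268, ALG14 and TRDMT1, with r between 0.949 and 0.960. The arrays share their groups, and the ABCG2 likeness includes the single high array of the cell line, so these values are given as a description.

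**Figure D4:**
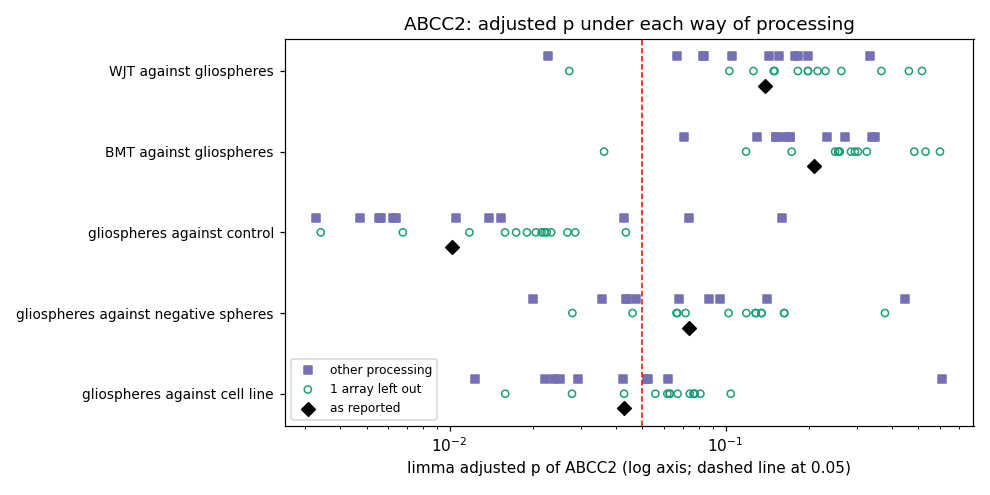
Adjusted p of ABCC2 by limma (x axis, log scale, dashed line at 0.05) in 5 comparisons with the gliospheres arrays, as reported (diamonds), under other processing (squares) and with 1 array left out (open circles). In gliospheres against control the points range between 0.00328 and 0.160 and lie mostly left of the line, and in the other 4 comparisons they fall on both sides of it.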

How the data were processed

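Total RNA of 14 samples was hybridised to Affymetrix human transcriptome arrays. The deposited table holds log2 signals, computed by the authors in the Transcriptome Analysis Console with signal space transformation followed by robust multi-array averaging; the genome build was not given in the sources used here. Changes of dim genes may be compressed in such values, and how far this scale compresses or stretches other changes was not tested. Of the transcript clusters tested, 23781 had 1 symbol, 1543 several and 42204 none in the platform annotation, and 2995 other probe sets were left out.

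All 67528 clusters were fitted with limma 3.58.1 in R 4.3.3 (lmFit, eBayes; prior degrees of freedom 1.95 with 4 groups and 1.98 with 5). A fit of 4 groups gave the WJT, BMT and control comparisons, and a fit of 5 groups gave those with negative spheres or cell line alone. The methods name both kinds for the control group but speak of triplicates, and which of the 5 arrays they used is not known here, so all 5 were pooled as control. Same-numbered gliospheres and cell line arrays deviated together (r 0.284, 0.317 and 0.396), a hint of pairing from the data, since the labels state none. BMT and cell line arrays, not compared here, did so as well (r 0.164, 0.252 and 0.190). The other compared groups with 3 shared numbers did not. The fits reported hold no pairing term. The replicate number entered as a block only as an alternative, where the ABCC2 call against the cell line was lost. Calls had a Benjamini-Hochberg adjusted p below 0.05. The fit was run on simulated independent normal values, with known shifts in WJT and a spread per cluster shared by all groups. Unequal spreads between groups, such as those of ABCC2, were not simulated, so this run cannot speak to them. Figures used Python 3.11.15 with matplotlib 3.10.9.

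The members, roles and gene lists were chosen with earlier results of these data known. Values on every array are given for ABCC2, ABCG2, ABCB1, ABCC1, ABCA1, ABCG1, members that passed and the 3 of smallest p in each comparison; up to 4 genes of smallest p are named per list. All 43 gene numbers matched RefSeq, and promoters (RefSeq, GRCh38.p14) were matched for 34. The number of arrays limits the precision.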

Additional observations from a re-analysis of the deposited data

Results flagged for a closer look

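ABCC3 had 1 array far from the rest. Its signal on replicate 1 of the cell line was 5.87 log2, while the other 4 control arrays lay between 4.83 and 5.13, and the gap filled 0.714 of the range of the 5 arrays, just above the critical ratio of 0.71. The same array was also the highest control array in ABCC1. Of the 12 ABC genes checked this way 1 had such an array, and chance gives about 1 in 20 groups.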

How the results depend on the processing

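The number of ABC genes called was 1 for gliospheres against control, and 0 with only those groups in the fit and with negative spheres only as control. The count for gliospheres against the cell line was 1, and 0 with only those groups, with an intensity trend and robust prior, with array weights and with a replicate block, and between 0 and 1 on leaving out 1 array. The count for gliospheres against negative spheres was 0, and 1 with a mean log2 of at least 5, array weights, clusters with 1 symbol only or the mean of all clusters of a gene, 2 at the unadjusted criterion with a fold of at least 2, and between 0 and 1 on leaving out 1 array. For WJT the count was 0, and 1 with array weights (ABCC2 -2.39, adjusted p 0.0228) and at the unadjusted criterion, and between 0 and 1 on leaving out 1 array. For BMT it was 0, and 1 at the unadjusted criterion and between 0 and 1 on leaving out 1 array. For negative spheres against the cell line it was 0, and 1 at the unadjusted criterion. With a log2 difference of at least 2 in the unadjusted criterion, added after seeing the data, the count was 1 for WJT, BMT and gliospheres against negative spheres. An alternative chosen after seeing the data, without gliospheres replicate 3 and cell line replicate 3, the arrays least like their groups, gave 1 call for gliospheres against negative spheres (ABCC2, adjusted p 0.0200) and 0.00328 as the adjusted p of ABCC2 against control. Some of these settings use fewer arrays or genes, whereas array weights, the intensity trend and the replicate block use all of them. The cause of the shifts was not tested.

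Deviations of 26 same-numbered pairs of arrays correlated between -0.297 and 0.396, and 11 were over 0.1. Among them were the 3 of gliospheres and the 3 of BMT with the cell line. With the replicate block the adjusted p of ABCC2 was 0.0525 against the cell line, where the call was lost, and 0.0153 against control, and no other call of an ABC gene changed. Over 24 results on named genes and 587 alternatives, 560 kept direction and side of the threshold, 17 lost and 10 gained a call, and 0 changed sign. Most of these results were not calls to begin with. The 17 losses all fell on the calls of ABCC2, with 2 of 26 alternatives against control and 15 of 24 against the cell line. Most named genes were picked by small p in these same data, so the stable signs are no independent check. Without 1 array the log2 difference of ABCC2 lay between 2.25 and 3.32 against control, -3.08 and -2.0 in WJT, and -2.59 and -1.51 in BMT. Signals of the 19 members near background allow no statement on change.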

Other observations

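Glutathione conjugates are substrates of ABCC1 and ABCC2, and 18 of 19 listed genes of glutathione synthesis and conjugation were measured. None passed in any comparison. GCLM, the modifier subunit of the enzyme that limits glutathione synthesis, averaged 12.62 ± 0.45 log2 in WJT and 10.27 ± 1.79 in gliospheres (SD, n = 3 each), a difference of 2.35 with an unadjusted limma p of 0.00309 and an adjusted p of 0.434. In BMT it averaged 11.79 ± 0.22 (SD, n = 3), a difference of 1.52 from gliospheres with a limma adjusted p of 0.548. Glutathione reductase GSR averaged 9.39 ± 0.29 in gliospheres (SD, n = 3) and 8.90 ± 0.31 in control (SD, n = 5), with a limma adjusted p of 0.289. GSTM3, a glutathione transferase, and UGT2B7, a glucuronosyltransferase, differed by -0.20 and -0.65 in gliospheres against control (limma adjusted p 0.302 and 0.401).

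Of 13 listed carriers of drugs and xenobiotics outside the ABC family 10 were measured and none passed. SLC7A11, the cystine importer that feeds glutathione synthesis, averaged 7.03 ± 0.64 log2 in gliospheres (SD, n = 3) and 9.25 ± 0.63 in negative spheres (SD, n = 2), a difference of -2.22 with a limma adjusted p of 0.353. SLCO4A1, an organic anion carrier, averaged 5.88 ± 0.24 in negative spheres (SD, n = 2) and 5.26 ± 0.09 in the cell line (SD, n = 3), with a limma adjusted p of 0.622. SLCO2B1, of the same carrier family, differed by 0.31 in gliospheres against control (limma adjusted p 0.374).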
